A study of Canis lupus familiaris with 186 samples.

Results

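The tumors described here are the 10 of 186 canine osteosarcomas (OS) that 2 related gene signatures placed in opposite groups. GS-1 and GS-2 are lists of genes whose expression the study used for K-means clustering, and each clustering split the dogs into a favorable prognosis (FP) and a poor prognosis (PP) group. The 10 discordant tumors were FP by GS-1 and PP by GS-2 in the listed clusters, 48 tumors were FP by both, 124 were PP by both and 4 were PP by GS-1 and FP by GS-2. All samples were primary tumors of pet dogs with appendicular OS, taken before any treatment in the trials COTC021 and COTC022 of standard therapy with or without sirolimus, with 1 mRNA library and 1 tumor per dog, so that each dog is 1 replicate. Of the discordant dogs, 3 came from COTC021 (0307, 1806 and 1904) and 7 from COTC022 (0225, 0404, 0905, 1704, 1707, 2006 and 2303). Among the dogs FP by both, 26 came from COTC021 and 22 from COTC022, and among those PP by both 61 and 63. The question was which immune compartments the discordant tumors shared with either concordant group.

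OS is a tumor of bone-forming cells, and a biopsy also holds osteoclasts, macrophages, lymphocytes, vessels, fibroblasts and, at its margin, muscle. Macrophages and dendritic cells take up antigen and present it on major histocompatibility complex (MHC) class II molecules to helper T cells. MHC class I, present on nearly all cells, shows peptides to cytotoxic T cells, and its processing genes are induced by interferons, the cytokines that T cells and virus-sensing cells release. In such bulk samples, fewer cells of a type and less RNA per cell cannot be told apart.

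By a mean score of the signature genes, the discordant tumors lay between the concordant groups for both signatures. As a score, the z-scores of the signature genes were averaged for each dog. The median GS-1 score of the discordant tumors was 0.498 (range 0.316 to 0.750), against 0.849 in tumors FP by both and -0.372 in tumors PP by both. Of the 10 tumors, 9 had a GS-1 score above the highest tumor PP by both and 1 (dog 0404) scored below the lowest tumor FP by both. Their median GS-2 score was 0.265 (0.032 to 0.408), between 0.612 in tumors FP by both and -0.285 in tumors PP by both. For GS-2, 7 of the 10 scored below the lowest tumor FP by both and 3 above the highest tumor PP by both. On the other side of the borders, 18 tumors FP by both had a GS-1 score below the highest discordant one, and 3 tumors PP by both had one above the lowest. The same genes formed the clusters, so the scores are given without a test.

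**Figure D1:**
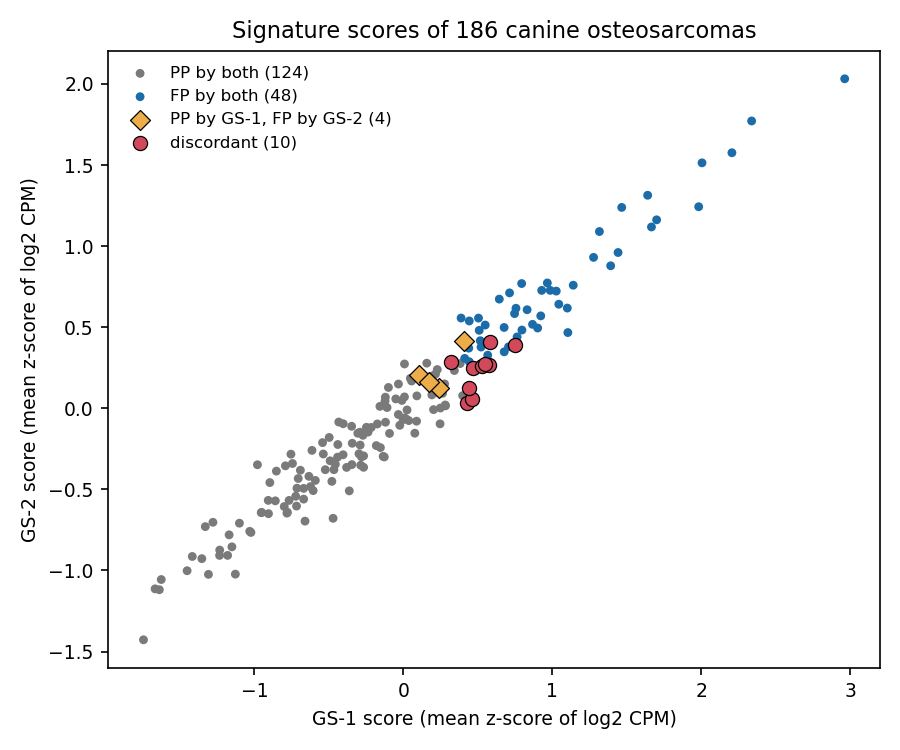
GS-1 score (horizontal axis) and GS-2 score (vertical axis) of each of 186 dogs, both as mean z-scores of log2 CPM, with 1 point per tumor and colors for the 4 combinations of clusters. The 10 discordant tumors sit between 0.316 and 0.750 for GS-1 and between 0.032 and 0.408 for GS-2, along the boundary between the concordant groups.

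The genes of the signatures were intermediate in most cases, which the choice of the groups fixes in part. Of the 27 GS-1 genes, 25 had a fitted level in the discordant tumors between those of the concordant groups. Of the 155 GS-2 genes that passed the filter, 99 lay below tumors FP by both and above tumors PP by both, 25 below both groups, 27 above both and 4 above tumors FP by both and below tumors PP by both. The median log2 difference of GS-1 genes was -0.72 from tumors FP by both and 1.44 from tumors PP by both, and that of GS-2 genes was -0.88 and 1.07. Levels are given below as CPM, the count of a gene scaled to the same total in every library. C1QB, a chain of the first complement component made by macrophages, belongs to both signatures and had a median of 170 CPM in the discordant tumors, 325 in tumors FP by both and 69.0 in tumors PP by both. MX1, an interferon-induced antiviral gene of GS-2, had medians of 9.79, 127 and 32.6 CPM in the same order, and MFAP4, a matrix protein gene of GS-2, 131, 1.45 and 1.04 CPM. No p-value is given for single signature genes, since these genes formed the groups. Because other immune genes vary together with them, results on those are not independent of how the groups were formed, and lists are therefore counted outside GS-1 and GS-2.

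Among 13422 genes that passed the low-count filter, 602 differed between discordant tumors and tumors FP by both at an adjusted p below 0.05 (limma, trial as covariate), which is 4.49% of the genes tested. These totals include signature genes, and outside the signatures 540 genes differed from tumors FP by both and 1931 from tumors PP by both. Of the 602 genes that differed from tumors FP by both, 398 were higher (2.97%) and 204 lower (1.52%) in the discordant tumors. Against tumors PP by both, 2025 genes differed (15.1%), of which 1387 were higher (10.3%) and 638 lower (4.75%). The balance of directions depended on the tool: edgeR gave 297 higher and 384 lower against tumors FP by both and 1114 and 1082 against tumors PP by both, and DESeq2 322 and 685, and 1080 and 1565. The 2 comparisons share the 10 discordant dogs and are given side by side without a test between them. Higher than both groups were 320 genes (2.38%), and lower than both were 30 (0.224%). Compared with the midpoint of the concordant groups, 749 genes differed (5.58%), 612 higher (4.56%) and 137 lower (1.02%). This balance also depended on the tool, with 454 higher and 320 lower by edgeR and 441 higher and 692 lower by DESeq2. Lower than in tumors FP by both and higher than in tumors PP by both were 26 genes (0.194%), and 1041 (7.76%) were higher than in tumors PP by both without a call against tumors FP by both. Lower than in tumors FP by both without a call against tumors PP by both were 148 (1.1%). A fold change above 3 was reached by 213 of the called genes against tumors FP by both (1.59% of those tested), by 452 against tumors PP by both (3.37%) and by 219 against the midpoint (1.63%). The median log2 difference over all genes was -0.003 in both comparisons. The effect of the groups differed between the trials at an adjusted p below 0.05 for 0 genes by limma's interaction test. Of the 13422 genes, 177 had an unadjusted p below 0.05 against tumors FP by both and 190 against tumors PP by both. With 3 discordant dogs from COTC021, this test could miss differences between the trials. That interaction was tested by limma alone.

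Total counts of the discordant libraries ranged from 9105259 to 19589583, within the range of all libraries (6587631 to 27420857). IBSP, a bone matrix protein made by osteoblasts, was nearly absent from the discordant tumors of dogs 0307 (0.262 CPM) and 1904 (0.00 CPM), and the other 8 ranged from 14.7 CPM in dog 0905 to 2259 CPM. The muscle actin gene ACTA1 reached 2106, 1236, 529 and 388 CPM in dogs 0225, 0404, 1904 and 2006 and lay between 2.01 and 15.6 CPM in the other 6. Results that rest on these libraries are given with and without them, a choice made after seeing the data.

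The discordant tumors held macrophage transcripts at levels above those of tumors PP by both, with no difference called from tumors FP by both. Of 15 macrophage genes outside the signatures, 8 were higher than in tumors PP by both and 0 lower, with a median log2 difference of 1.23. The same 15 genes gave 0 calls in either direction against tumors FP by both (limma), where 11 of the differences were negative and the median was -0.45. By edgeR 7 of the 15 were higher than in tumors PP by both, and 0 differed from tumors FP by both, where DESeq2 called 1 lower. The called genes included scavenger receptors and phagocyte genes, while CD14, CD68 and CSF1R passed neither test. The background of genes higher than in tumors PP by both is 10.3%.

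CD163 (chromosome 27, 8402538 to 8433169, UU_Cfam_GSD_1.0), the hemoglobin scavenger receptor of macrophages, ranged from 51.4 to 440 CPM in the discordant tumors with a median of 176 CPM. Its median was 162 CPM in tumors FP by both and 38.3 CPM in tumors PP by both. All 10 discordant tumors exceeded the PP median, and 5 of 10 exceeded the FP median. The log2 fold change was 2.42 (SE 0.41, adjusted p = 2.64e-06) against tumors PP by both and 0.21 (SE 0.44, adjusted p = 0.848) against tumors FP by both. MRC1, the mannose receptor, had a median of 184 CPM (59.1 to 280) and rose by 2.57 (adjusted p = 1.39e-07) over tumors PP by both, and its difference of 0.96 from tumors FP by both did not pass (adjusted p = 0.174). MPEG1, a pore-forming protein of phagocytes, had a median of 210 CPM (128 to 315), against 72.5 CPM in tumors PP by both (log2 fold change 1.78, adjusted p = 9.85e-06). The scavenger receptors MARCO (log2 fold change 3.01, adjusted p = 0.000324) and MSR1 (1.35, adjusted p = 0.00351) were higher than in tumors PP by both as well.

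Other macrophage genes gave a different picture. CSF1R, the receptor of the macrophage growth factor CSF1, ranged from 103 to 626 CPM (median 207), against medians of 408 in tumors FP by both and 202 in tumors PP by both, and passed neither test. CD14, a co-receptor for bacterial lipopolysaccharide, had a median of 65.1 CPM against 122 and 61.5 CPM, also without a call. CD68, a lysosomal protein of macrophages and osteoclasts, had a median of 47.5 CPM against 227 and 211 CPM (adjusted p = 0.101 and 0.316). For CD68, dogs 0225, 1707 and 1806 had 404 to 634 CPM and the other 7 had 16.4 to 116 CPM. TLR4, the receptor for lipopolysaccharide, was higher than in tumors PP by both in all 10 dogs relative to the PP median (median 31.6 against 9.34 CPM, log2 fold change 1.91, adjusted p = 6.40e-10). Of 6 Toll-like receptor genes outside the signatures, 4 were higher than in tumors PP by both, and 0 differed from tumors FP by both.

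Against tumors PP by both, MHC class II genes behaved like the scavenger receptors. All 6 class II genes outside the signatures were higher than in tumors PP by both, with log2 differences between 1.45 and 1.94. None of the 6 differed from tumors FP by both by limma, where all 6 differences were negative with a median of -0.68, while edgeR called 2 and DESeq2 called 6 of them lower. Summed over the 6 genes, the discordant tumors ranged from 1059 to 3236 CPM with a median of 1890 CPM, against 3006 CPM in tumors FP by both and 640 CPM in tumors PP by both. All 10 exceeded the PP median and 1 exceeded the FP median. DLA-DRA (chromosome 12, 2287866 to 2291417), the alpha chain of the class II molecule DR, had a median of 414 CPM (216 to 584), against 534 and 117 CPM in the concordant groups. It rose by 1.94 (SE 0.34, adjusted p = 6.48e-06) over tumors PP by both, and its difference from tumors FP by both was -0.66 (SE 0.37, adjusted p = 0.330). CD74, the invariant chain that guides class II molecules (log2 fold change 1.58, adjusted p = 5.91e-05), and CIITA, the transactivator of the class II genes (1.83, adjusted p = 4.13e-06), were also higher than in tumors PP by both. When dogs 0307 and 1904 were left out, 6 of 6 MHC class II genes and 7 of 15 macrophage genes remained called against tumors PP by both, and with COTC022 alone 6 and 5. With the GS-1 score added as a covariate, limma called 0 MHC class II and 0 macrophage genes against tumors PP by both, and the medians were 0.29 and -0.10.

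Genes of antigen-presenting and co-stimulating cells followed. Of 8 dendritic cell genes, 5 were higher than in tumors PP by both and 1, the maturation marker CD83, was lower than in tumors FP by both. IRF8, a transcription factor that dendritic cells need, had a median of 19.7 CPM (12.7 to 28.7), against 30.7 and 6.17 CPM. It rose by 1.85 (SE 0.27, adjusted p = 2.73e-08) over tumors PP by both, and all 10 discordant tumors were above the PP median and below the FP median. XCR1, a chemokine receptor of the dendritic cells that present antigen to cytotoxic T cells, rose by 2.40 (adjusted p = 4.16e-07), from a median of 0.803 CPM in tumors PP by both to 4.12 CPM. FLT3, the receptor of the dendritic cell growth factor FLT3 ligand, rose by 1.15 (adjusted p = 0.000334). CD86, a ligand that co-stimulates T cells, rose by 1.58 (adjusted p = 2.96e-06). CD22, an inhibitory receptor of B cells, rose by 2.48 over tumors PP by both (median 7.40 against 1.16 CPM, adjusted p = 3.87e-09). Of 11 B cell genes only CD22 and BANK1 passed the low-count filter, so the list rests on those 2 genes.

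Complement genes were mostly higher than in tumors PP by both, and their median outside the signatures was also above tumors FP by both (1.83 and 1.04). Of 11 complement genes outside the signatures, 10 were higher than in tumors PP by both and 2, C7 among them, were higher than in tumors FP by both. C3, the central component of the cascade, ranged from 10.7 to 1214 CPM (median 139), against medians of 54.9 and 11.9 CPM. It rose by 3.35 (SE 0.56, adjusted p = 1.74e-06) over tumors PP by both, and its difference of 1.46 from tumors FP by both did not pass (adjusted p = 0.137). CFD, a protease of the alternative pathway that adipocytes also make, rose by 3.43 (adjusted p = 3.42e-08) over tumors PP by both. C7, a part of the membrane attack complex, rose by 3.20 (adjusted p = 5.03e-05) over tumors PP by both and by 2.46 (adjusted p = 0.0221) over tumors FP by both, neither of which passed by edgeR (adjusted p = 0.0672 and 0.0605). CXCL12, a chemokine of stromal cells, was higher than in both groups as well (1.48, adjusted p = 0.0382, and 2.10, adjusted p = 9.31e-05), but its call against tumors FP by both was lost in 14 of 22 alternatives, including edgeR (adjusted p = 0.0784), DESeq2 (adjusted p = 0.0706) and the omission of dogs 0307 and 1904 (adjusted p = 0.220). The highest C3 values, 1214, 573 and 441 CPM, were those of dogs 0905, 0307 and 1904. After omission of dogs 0307 and 1904, 6 of 11 complement genes stayed above tumors PP by both and 1 above tumors FP by both, and C7 lost its call against tumors FP by both (adjusted p = 0.314). The fibroblast gene THY1 was also high in these 3 dogs (1546, 1224 and 1830 CPM, against a median of 866 CPM), and its part in the complement result was not tested.

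The interferon and MHC class I programs lay at the level of tumors PP by both and below tumors FP by both. Of 13 interferon-stimulated genes outside the signatures, 12 were lower than in tumors FP by both (median log2 difference -1.61), against 1.52% of all genes. Against tumors PP by both, 1 of the 13, USP18, was lower and the median difference was -0.18. This USP18 call was lost in 12 of 22 alternatives, including the omission of dogs 0307 and 1904 (adjusted p = 0.232). It was kept by edgeR (adjusted p = 0.0262) and DESeq2 (adjusted p = 0.00516). The exception against tumors FP by both was IFI6 (adjusted p = 0.219). Summed over these 13 genes, the discordant tumors ranged from 264 to 819 CPM with a median of 370 CPM, against 973 CPM in tumors FP by both and 417 CPM in tumors PP by both. None of the 10 exceeded the FP median, and dog 0404, with 819 CPM, was the only one above the PP median. The other 15 interferon-stimulated genes tested are members of GS-2 and belong to the choice of the groups. The 13 counted here are related to them, so their low level is not independent of that choice. The 1.52% is given as background and is not a test.

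IRF1, a transcription factor induced by interferon gamma, had a median of 24.6 CPM in the discordant tumors, 70.6 CPM in tumors FP by both and 25.7 CPM in tumors PP by both, a log2 difference of -1.52 (adjusted p = 0.000782) and -0.00 (adjusted p = 0.994). GBP1, a guanylate-binding protein induced by the same cytokine, differed by -2.16 (SE 0.42, adjusted p = 0.000377) from tumors FP by both and by 0.57 (adjusted p = 0.346) from tumors PP by both. IFGGC1 showed the largest fall among the named genes relative to tumors FP by both, by 4.63 on the log2 scale (adjusted p = 0.00884), with a median of 0.530 CPM against 39.7 CPM in tumors FP by both. ISG15, a ubiquitin-like antiviral protein, ranged from 0.785 to 93.3 CPM, the highest value again in dog 0404, and fell by 3.52 (adjusted p = 0.0322). The median of tumors FP by both for ISG15 was 42.5 CPM, which dog 0404 alone exceeded.

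Of 9 genes of MHC class I and its peptide loading outside the signatures, 8 were lower than in tumors FP by both and 1, TAP2, was also lower than in tumors PP by both. B2M (chromosome 30, 11616856 to 11621737), the light chain of class I molecules, ranged from 209 to 362 CPM with a median of 300.0 CPM. The median was 664 CPM in tumors FP by both and 224 CPM in tumors PP by both, and 0 of 10 discordant tumors reached the FP median. B2M fell by 1.15 (SE 0.26, adjusted p = 0.00353) relative to tumors FP by both, and its difference of 0.51 from tumors PP by both did not pass (adjusted p = 0.143). TAP1, a subunit of the peptide transporter, had a median of 44.3 CPM (34.0 to 81.5), against 123 and 56.3 CPM, with a fall of 1.36 (adjusted p = 0.000254) relative to tumors FP by both. Its partner TAP2 fell by 1.04 (adjusted p = 0.000390) and by 0.53 (adjusted p = 0.0457) relative to the 2 groups. The TAP2 call against tumors PP by both was lost in 16 of 22 alternatives, including the omission of dogs 0307 and 1904 (adjusted p = 0.113). It was kept by edgeR (adjusted p = 0.028) and DESeq2 (adjusted p = 0.0141). TAPBP, which bridges the transporter and the class I molecule, fell by 0.98 (adjusted p = 0.00310) relative to tumors FP by both. DLA88, a classical class I heavy chain, fell by 1.54 (adjusted p = 0.00844). Reads of class I heavy chain genes can map to their close relatives, so the values of single heavy chains are uncertain. Summed over the 9 genes, the discordant tumors ranged from 854 to 1606 CPM, and the tumors FP by both from 1333 to 10630 CPM.

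The size of the interferon and class I differences changed less than the number of calls when tumors were left out. Without dogs 0307 and 1904, 1 of 13 interferon-stimulated genes (median log2 difference -1.52) and 3 of 9 MHC class I processing genes (median -1.07) were called lower than in tumors FP by both. TAP1 (adjusted p = 0.0114) was among those that stayed called, and B2M (adjusted p = 0.0695) was not. With COTC022 alone, which leaves 7 discordant tumors against 22 FP by both, 0 genes of either list were called by limma, with medians of -1.40 and -0.98. With the GS-1 score as a covariate, 9 of the interferon-stimulated and 5 of the MHC class I processing genes were lower than in tumors FP by both. By edgeR the counts were 13 and 8.

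T cell transcripts were low in the discordant tumors, and many of them were too scarce to test. Of 23 T cell genes, 11 did not pass the low-count filter, and CD3E and 5 others that did are in the signatures. Of the other 6, CD3G and CD6 were lower than in tumors FP by both, and 0 differed from tumors PP by both by limma or edgeR. CD3G (chromosome 5, 15403667 to 15416467), a chain of the T cell receptor complex, had a median of 1.22 CPM (0.177 to 7.31), against 6.40 CPM in tumors FP by both and 0.957 CPM in tumors PP by both, and fell by 2.40 (adjusted p = 0.0460). CD6, a co-receptor of T cells, fell by 1.89 (adjusted p = 0.0370). CD4 (-1.30, adjusted p = 0.205) and CD8B (-1.69, adjusted p = 0.0628) did not pass. Summed over the 6 genes, the median was 30.1 CPM, against 77.0 CPM in tumors FP by both and 41.3 CPM in tumors PP by both, and 0 of 10 discordant tumors exceeded the FP median. When dogs 0307 and 1904 were omitted, 0 of the 6 T cell genes were called by limma (CD3G adjusted p = 0.297, CD6 adjusted p = 0.251), and with all dogs edgeR called 4 and DESeq2 5. GZMK, a granzyme of cytotoxic and memory T cells, was the exception relative to tumors PP by both, with a rise of 2.39 (adjusted p = 0.00543) from a median of 1.10 to 3.68 CPM. The GZMK median in tumors FP by both was 14.6 CPM, and that difference of -1.55 did not pass by limma (adjusted p = 0.159). Both other tools called GZMK lower than in tumors FP by both, edgeR by -3.728 (adjusted p = 0.00284) and DESeq2 by -3.715 (adjusted p = 1.22e-06). At about 1 CPM a value rests on roughly 10 counts in a library of median size.

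**Figure D2:**
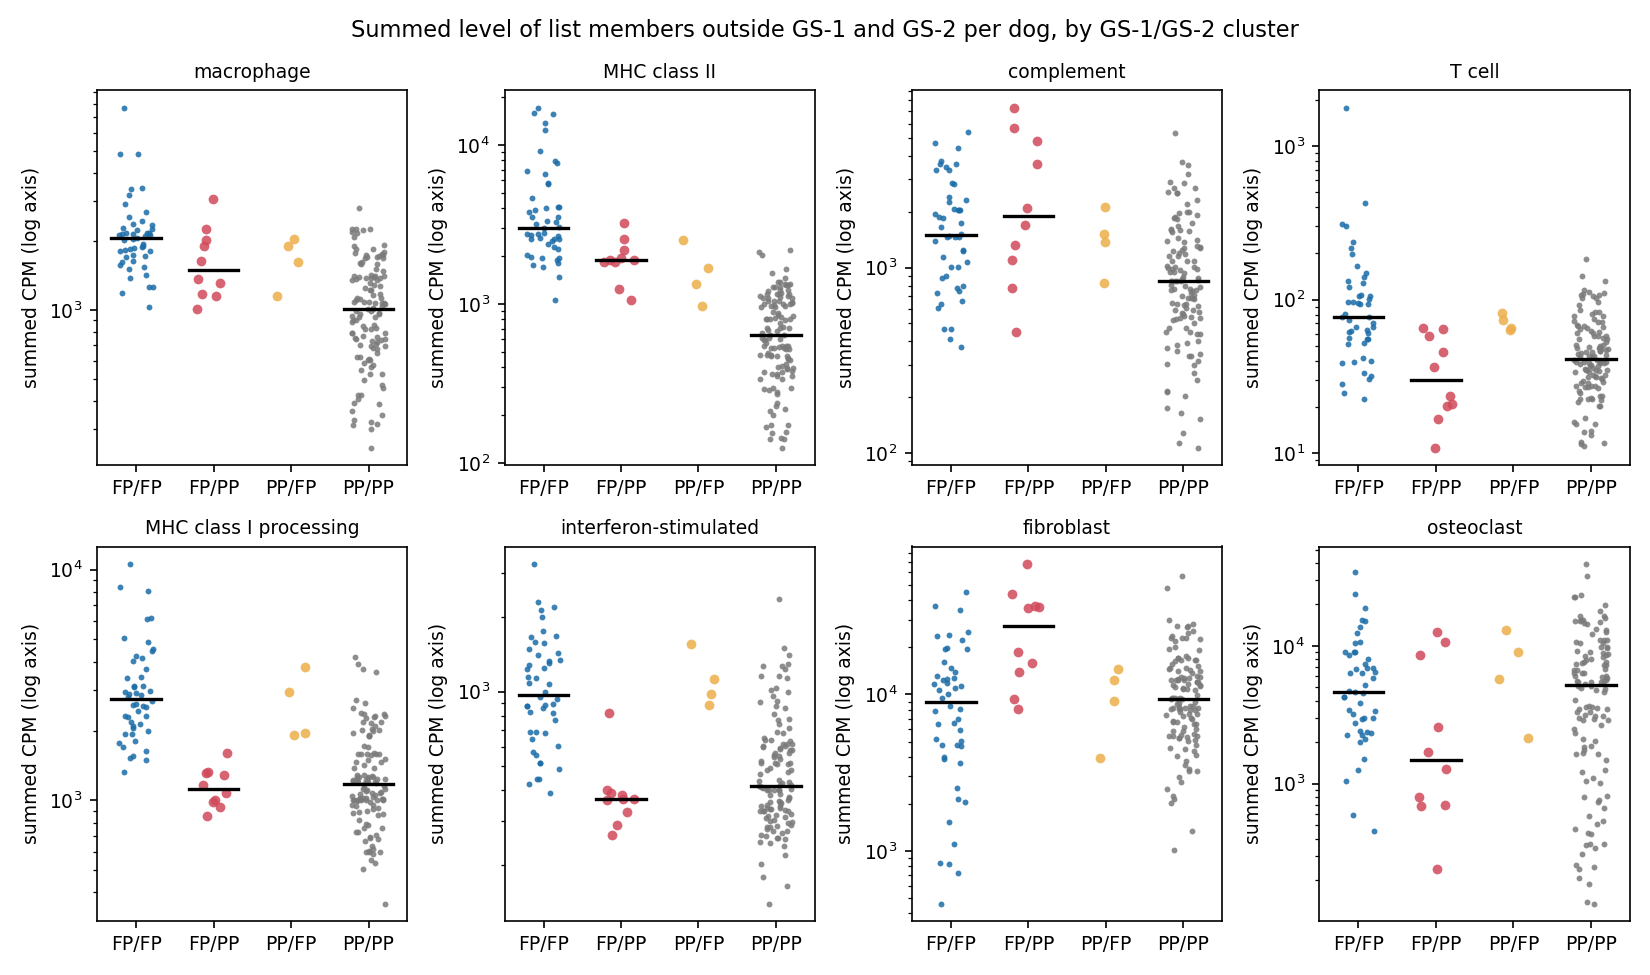
Summed CPM (log axis) of the list members outside GS-1 and GS-2, per dog, for 8 lists, by cluster pair (GS-1/GS-2), with 1 point per tumor and a line at the median of each group but PP/FP. For MHC class II the FP/PP tumors have a median of 1890 CPM, above the 640 CPM of PP/PP, whereas for interferon-stimulated genes their median of 370 CPM lies near the 417 CPM of PP/PP and below the 973 CPM of FP/FP.

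The plot of summed list levels shows the split by compartment. For macrophage and MHC class II genes the discordant tumors lay between the concordant groups, and for MHC class I processing, interferon-stimulated and T cell genes their median sums lay near or below those of the tumors PP by both. In the plot of list medians, the macrophage, MHC class II, dendritic cell and Toll-like receptor lists lie in the upper left region, above tumors PP by both and below tumors FP by both. The T cell list also lies there, at -1.58 and 0.57, while MHC class I processing and interferon-stimulated genes lie near the horizontal line. The complement, fibroblast, pericyte and skeletal muscle lists had positive medians against both groups, and the cartilage list lay at 0.57 and -0.33.

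**Figure D3:**
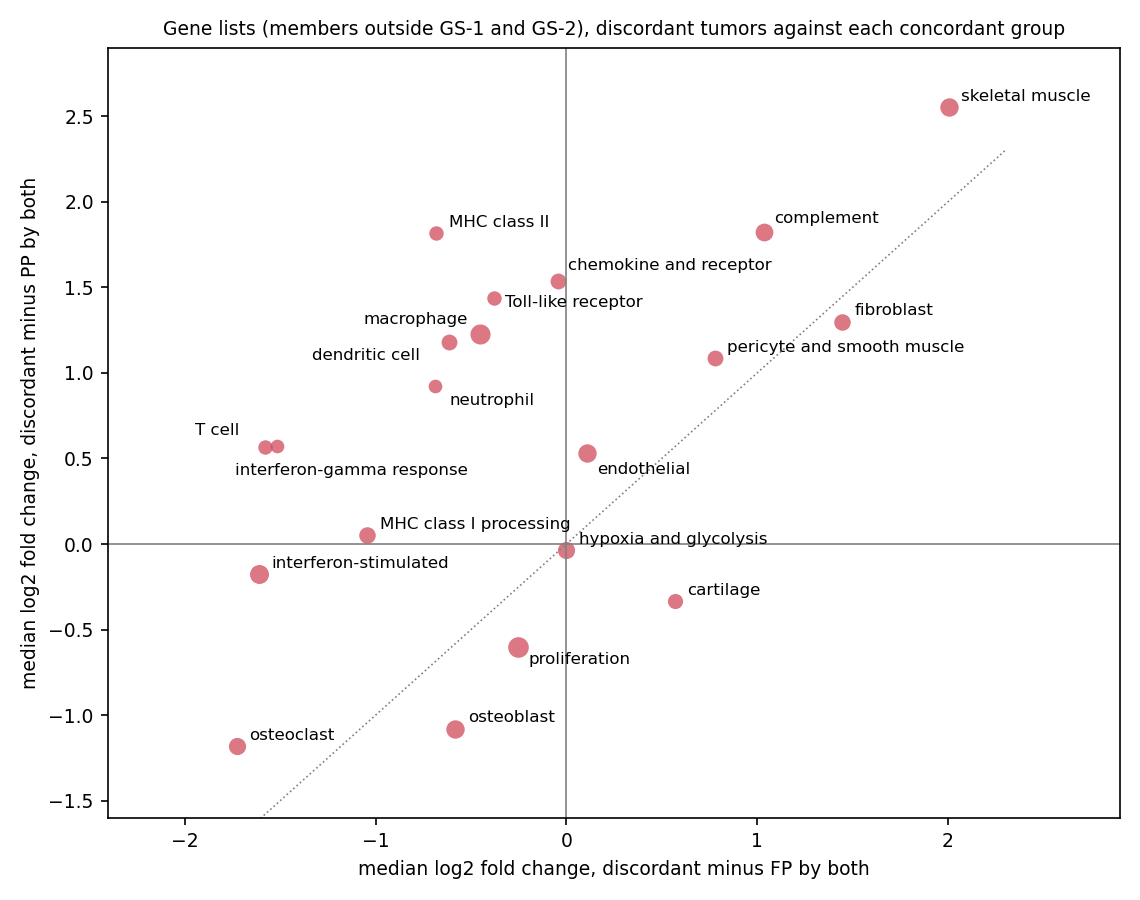
Median log2 fold change of the members outside GS-1 and GS-2 for each list with 5 or more such genes, against tumors FP by both (horizontal axis) and against tumors PP by both (vertical axis), with point size growing with the number of genes and a dotted line where both are equal. MHC class II lies at -0.68 and 1.82, interferon-stimulated at -1.61 and -0.18, and fibroblast at 1.44 and 1.3.

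The genes with the largest changes were not immune genes but genes of connective tissue and muscle. Among the 10 genes with the largest change in the same direction against both groups, all 10 were higher in the discordant tumors. MFAP5 (chromosome 27, 9060205 to 9074357), a microfibril protein of adventitial fibroblasts, had a median of 285 CPM, against 3.40 CPM in tumors FP by both and 1.32 CPM in tumors PP by both. It ranged from 0.525 CPM in dog 1806, 3.48 in dog 1707 and 12.6 in dog 0225 to 1224 CPM in dog 1704, and the other 6 lay between 62.8 and 710 CPM. MFAP5 rose by 5.00 (SE 0.84, adjusted p = 3.94e-05) over tumors FP by both and by 6.11 (SE 0.76, adjusted p = 1.75e-10) over tumors PP by both. By edgeR, which compares mean counts rather than mean logarithms, its differences were 2.24 (adjusted p = 0.164) and 4.36 (adjusted p = 1.74e-06).

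ABI3BP, an extracellular matrix protein, rose by 4.65 (adjusted p = 1.02e-10) over tumors PP by both and by 3.54 (adjusted p = 5.08e-05) over tumors FP by both, and was called in all 22 alternative analyses of each comparison. MMP23, a membrane-bound metalloprotease, exceeded both medians in 10 of 10 discordant tumors (9.05 to 86.7 CPM, against medians of 2.65 and 5.67 CPM), although edgeR called it in neither comparison. CCN3, a matricellular protein, CHRDL1, an antagonist of bone morphogenetic proteins, and PRG4, the lubricant proteoglycan of joints and tendon sheaths, were also among the genes raised against both groups. So were C1QTNF3 and ZPLD1. Of the 10 largest, edgeR called 6 against tumors FP by both (not MFAP5, C1QTNF3, CCN3 or PRG4) and 7 against tumors PP by both. Without dogs 0307 and 1904, 6 and 10 were called.

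Of 9 fibroblast genes outside the signatures, 4 were higher than in tumors FP by both and 3 higher than in tumors PP by both, with all 9 differences positive in each comparison. THY1, a surface glycoprotein of fibroblasts, had a median of 866 CPM (211 to 1830), against 312 and 339 CPM, and rose by 1.44 (adjusted p = 0.0151) and 1.3 (adjusted p = 0.00867). COL3A1, the fibrillar collagen of soft connective tissue, exceeded the FP median in 10 of 10 discordant tumors and rose by 2.74 (adjusted p = 0.0342) over tumors FP by both. PI16, a marker of adventitial fibroblasts, rose by 2.45 (adjusted p = 0.0398) and 3.97 (adjusted p = 8.41e-06), the first of which was lost in 12 of 22 alternatives, including edgeR (adjusted p = 0.0729), DESeq2 (adjusted p = 0.0793) and the omission of dogs 0307 and 1904 (adjusted p = 0.450). Likewise, the calls against tumors FP by both were lost in 8 of 22 alternatives for THY1 and in 10 of 22 for COL3A1. Summed over the list, the median was 27260 CPM, against 8974 and 9403 CPM, with 9 of 10 discordant tumors above the FP median and 8 of 10 above the PP median. Without dogs 0307 and 1904, 1 of 9 fibroblast genes was called against tumors FP by both and 2 against tumors PP by both, while the medians were 1.34 and 1.16. FABP4, a fatty acid carrier of adipocytes, capillaries and some macrophages, was higher than in tumors PP by both, by 4.53 (adjusted p = 4.20e-08), in 10 of 10 dogs relative to the PP median of 1.45 CPM. CNN1, calponin of smooth muscle cells, rose by 2.35 (adjusted p = 0.00512) over tumors FP by both and by 3.36 (adjusted p = 1.79e-07) over tumors PP by both.

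Muscle transcripts were present in part of the discordant tumors, and both concordant groups held tumors with more of them. Summed over 12 skeletal muscle genes, the highest discordant tumor had 9669 CPM. The highest values were 27160 CPM in tumors FP by both and 88670 CPM in tumors PP by both. DES (chromosome 37, 25809193 to 25815585), the intermediate filament of muscle, reached 2734, 1976, 978, 279 and 245 CPM in dogs 0225, 0404, 1904, 2006 and 0307, and lay between 2.61 and 15.5 CPM in the other 5. DES rose by 3.68 (adjusted p = 0.000236) over tumors FP by both and by 3.83 (adjusted p = 5.38e-07) over tumors PP by both. PDLIM3 and HSPB7, genes of the muscle cytoskeleton and its chaperones, were called in the same way. Of 12 skeletal muscle genes, 9 were higher than in tumors PP by both and 1 higher than in tumors FP by both. By edgeR the median of the skeletal muscle genes was -0.28 against tumors FP by both and -0.30 against tumors PP by both, with 1 gene higher in each. Without the 4 dogs with high ACTA1, 0 of the 12 skeletal muscle genes were called by limma and the median difference from tumors PP by both turned from 2.55 to -0.35. DES (adjusted p = 0.534 and 0.265) and HSPB7 (adjusted p = 0.206 and 0.0612) were then not called, whereas MFAP5 (5.03, adjusted p = 0.000830) stayed higher than in tumors FP by both. Without these 4 dogs, 6 of 9 MHC class I processing and 3 of 13 interferon-stimulated genes were lower than in tumors FP by both. In the same analysis, 6 of 6 MHC class II and 7 of 15 macrophage genes were higher than in tumors PP by both.

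Several genes of bone-forming cells were lower than in tumors PP by both, and most of these calls depended on dogs 0307 and 1904. Of 12 osteoblast genes outside the signatures, 6 were lower than in tumors PP by both and 0 higher. RUNX2, the transcription factor of the osteoblast lineage, had a median of 117 CPM (30.4 to 246), against 221 CPM in tumors PP by both, and fell by 1.10 (SE 0.23, adjusted p = 0.000133). ALPL, the bone alkaline phosphatase, fell by 2.36 (adjusted p = 0.00249), with 0 of 10 discordant tumors above the PP median of 913 CPM. IBSP fell by 2.46 (adjusted p = 0.0363), although 6 of 10 discordant tumors exceeded the PP median. Without dogs 0307 and 1904 the IBSP difference was 0.06 (adjusted p = 0.982), and 1 of the 12 osteoblast genes, RUNX2 (-0.78, adjusted p = 0.0429), was called, while ALPL differed by -1.71 (adjusted p = 0.119). The collagen genes COL1A1 and COL1A2, which osteoblasts share with fibroblasts, were higher than in tumors FP by both (1.54, adjusted p = 0.0356, and 1.23, adjusted p = 0.0370). Each of these calls was lost in 12 of 22 alternatives, including edgeR (adjusted p = 0.0613 and 0.0578), DESeq2 (0.0540 and 0.0501) and the omission of dogs 0307 and 1904 (0.209 and 0.212). HOXB13, a homeobox gene of positional patterning, fell by 4.35 on the log2 scale relative to tumors PP by both (adjusted p = 0.0460). HOXB13 was listed at 0 in 5 of the discordant tumors, so its fold change depends on the small value added to zero counts.

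Osteoclast genes varied widely among the discordant tumors, as they did within both concordant groups. MMP9, a gelatinase abundant in osteoclasts, fell by 2.95 (adjusted p = 0.0265) relative to tumors FP by both and by 2.57 (adjusted p = 0.0181) relative to tumors PP by both, ranging from 1.22 to 2779 CPM. The other 9 osteoclast genes were called by limma in neither comparison. ACP5, the tartrate-resistant phosphatase of osteoclasts, had 3747, 4418 and 2449 CPM in dogs 0225, 1707 and 1806 and 11.4 to 793 CPM in the other 7. Summed over 10 osteoclast genes, those 3 dogs had 8597, 12680 and 10730 CPM, above the medians of both concordant groups (4668 and 5227 CPM), and the other 7 had 242 to 2589 CPM. The same sum ranged from 452.5 to 34300 CPM in tumors FP by both and from 134.7 to 39650 CPM in tumors PP by both. Without dogs 0307 and 1904 MMP9 was not called (adjusted p = 0.572 and 0.513), nor was it by edgeR with all dogs (adjusted p = 0.346 and 0.199). Of 16 proliferation genes, the replication helicase subunits MCM2 (-0.97, adjusted p = 0.00859) and MCM5 (-1.03, adjusted p = 0.00574) were lower than in tumors PP by both, against 4.75% of all genes. None of the 16 differed from tumors FP by both by limma. Both calls were lost without dogs 0307 and 1904 (adjusted p = 0.0697 and 0.103) and kept by edgeR (adjusted p = 0.00639 and 0.00624). All 16 differences from tumors PP by both were negative, and 10 of 10 discordant tumors had a sum below the PP median (1405 CPM).

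The plot of genes by dog shows that the discordant tumors differed from each other. Dogs 0225, 1707 and 1806 combined high osteoclast genes with low PI16 (0.871 to 1.12 CPM), and the other 7 combined low osteoclast genes with PI16 between 22.2 and 627 CPM. This split of the dogs was made after their values were seen and was not tested. Across both sets of dogs, CD163, MPEG1, IRF8 and DLA-DRA exceeded the PP median in all 10, and TAP1, IRF1 and GBP1 stayed below the FP median in all 10. Dog 0404 had the highest ISG15 and USP18, and dog 2006 the highest CD3G, CD6 and GZMK.

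**Figure D4:**
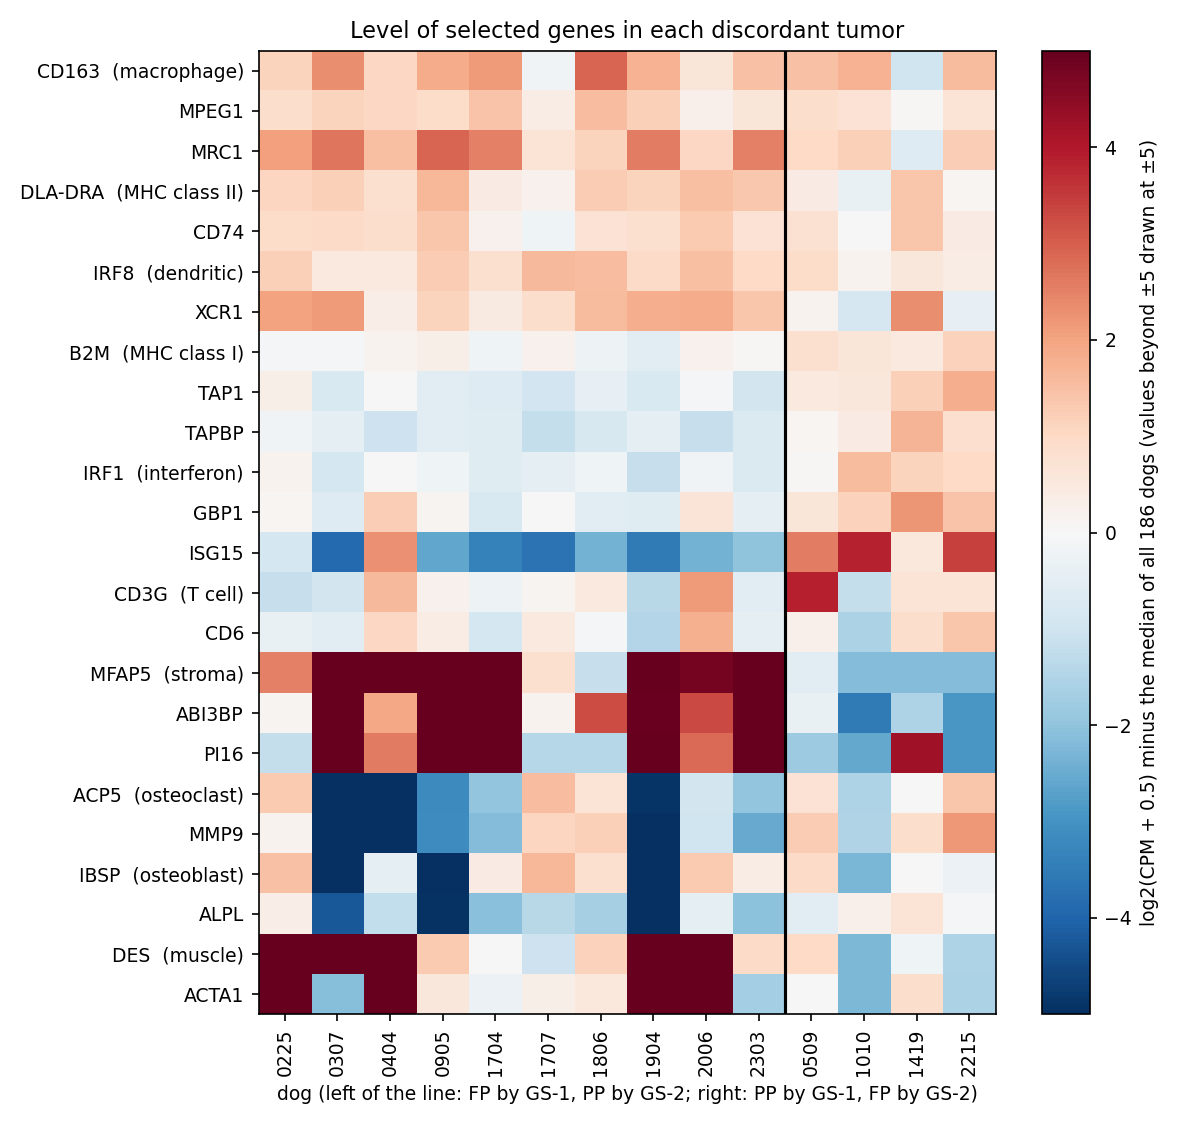
Log2(CPM + 0.5) minus the median of all 186 dogs for selected genes (rows) in the 10 discordant tumors and, right of the line, the 4 tumors PP by GS-1 and FP by GS-2, with values beyond -5 or 5 drawn at those limits. Macrophage and MHC class II rows are mostly above the overall median in the discordant tumors, MHC class I and interferon rows mostly at or below it, and stromal, osteoclast, bone and muscle rows differ widely between dogs.

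The 4 tumors with the opposite combination, PP by GS-1 and FP by GS-2, are described without a test. Their interferon-stimulated genes outside the signatures summed to between 883 and 1563 CPM, above each of the 10 discordant tumors. ISG15 was 27.1 to 272 CPM in these 4 tumors. Their MHC class I processing genes summed to between 1930 and 3771 CPM, again above each discordant tumor (up to 1606 CPM), and B2M ranged from 420 to 667 CPM. In macrophage genes they did not stand apart, with sums of 1153 to 2054 CPM against 1006 to 3060 CPM, and CD163 lay between 28.5 and 193 CPM. DLA-DRA ranged from 142 to 486 CPM. MFAP5 was listed at 0 in 3 of them and at 1.02 CPM in dog 0509. Since the clusters were formed from signatures in which interferon-stimulated genes belong to GS-2, a difference in that direction follows in part from the choice of the groups.

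In the remaining lists, counts outside the signatures are read against 10.3% of all genes higher and 4.75% lower than in tumors PP by both, and 2.97% higher and 1.52% lower than in tumors FP by both. Of 8 chemokine and chemokine receptor genes, 6 were higher than in tumors PP by both and 1, CXCL12, higher than in tumors FP by both. Of 5 interferon-gamma response genes, 3 were lower than in tumors FP by both and none was called by limma against tumors PP by both. Higher than in tumors PP by both were 3 of 8 pericyte and smooth muscle genes, 2 of 4 immune checkpoint genes and 2 of 4 adipocyte genes. The counts were 2 of 12 for endothelial, 1 of 7 for cartilage, 1 of 5 for neutrophil and 1 of 4 for pan-leukocyte genes, lists in which 1 or 2 genes decide the share. Of 10 hypoxia and glycolysis genes, 1 was lower than in tumors PP by both. The single plasma cell gene and the single erythroid gene tested gave no call by limma in either comparison, and the 5 GIMAP genes tested are all in the signatures.

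Mast cell genes were mostly too low in the series to be tested. The 2 that passed the filter, KIT and GATA2, which other cells also express, gave no call by limma. Their sum had a median of 14.2 CPM in the discordant tumors, 14.9 CPM in tumors FP by both and 20.0 CPM in tumors PP by both. By this sum, 7 of 10 discordant tumors lay below the PP median. Of the 5 below the filter, CPA3, a carboxypeptidase of mast cell granules, ranged from 1.06 to 91.9 CPM in the discordant tumors with a median of 9.50 CPM, against medians of 0.449 CPM in tumors FP by both and 0.187 CPM in tumors PP by both. CMA1, the mast cell chymase, had a median of 4.08 CPM (0.967 to 74.9), against 0.865 and 0.329 CPM. All 10 discordant tumors exceeded both medians for each of these genes, and dog 0905 had the highest value of each. MS4A2, a chain of the IgE receptor, had a median of 2.58 CPM, against 1.16 and 0.212 CPM, with 8 of 10 above the FP median and 10 of 10 above the PP median. These values were singled out after they were seen, cover only part of the list and were not tested. The 2 tested genes were both lower than in tumors PP by both (median log2 difference -0.17). Both were higher than in tumors FP by both (median 0.22). HDC and HPGDS, also below the filter, are not described here.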

How the data were processed

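RNA from 186 pretreatment tumors was sequenced as stranded mRNA libraries. Per the labels, the authors trimmed reads with cutadapt, aligned them with STAR 2.7.0f and quantified genes with RSEM 1.3.1 on a CanFam4 (UU_Cfam_GSD_1.0) reference. The deposited table holds expected counts for 37952 genes, of which 3.07% of values were not whole and were rounded, and 12 columns that match no sample were not used. Total counts ranged from 6587631 to 27420857 per library, which sets the precision of low genes. The trial came from the labels and the clusters from the study's supplementary list. Genes were filtered with filterByExpr (minimum count 10, proportion 0.5, large.n 5), which kept 13422, scaled by TMM and fitted with limma-voom over all 186 dogs with the 4 cluster pairs and trial as terms (R 4.3.3, limma 3.58.1, edgeR 4.0.16, DESeq2 1.42.0). Genes were called at a Benjamini-Hochberg adjusted p below 0.05, and adjusted p-values without another tool named are from limma. Plotted values and levels used Python 3.11.15. The procedure was tested on simulated data. Named genes were the 10 largest changes per comparison outside the signatures with the same sign in each trial, the 10 largest by the smaller change among genes called alike against both groups, and members of 29 lists. These lists hold 375 genes, of which 274 were tested, 88 fell below the filter and 13 were not found by symbol. Members and lists were chosen with earlier results of these data known. Gene coordinates are those of RefSeq. Some genes that met these rules are not reported here.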

Additional observations from a re-analysis of the deposited data

Results flagged for a closer look

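Among 152 sets of values, each over the 10 discordant tumors or the 4 tumors PP by GS-1 and FP by GS-2, 11 held a tumor far from the others by Dixon's ratio on log2(CPM + 0.5). Chance gives about 1 in 20 such sets.

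Dog 0404 stood above the other discordant tumors in interferon-stimulated genes. It had 93.3 CPM of ISG15 (others 0.785 to 9.96), 40.9 CPM of IFI44L (others 5.21 to 13.0) and 16.8 CPM of IFGGC1 (others 0.0872 to 2.66), and its summed interferon-stimulated genes reached 819 CPM (others 264 to 399.5 CPM).

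Dog 1707 had the lowest TAP2, 19.5 CPM (others 32.5 to 55.6), and the lowest summed interferon-gamma response genes, 113 CPM (others 185 to 296). Dog 0307 had the highest summed pericyte and smooth muscle genes, 5639 CPM (others 740 to 2168). Dog 2006 had 20.1 CPM of the 1 tested plasma cell gene outside the signatures (others 0.177 to 1.38).

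Among the tumors PP by GS-1 and FP by GS-2, dog 1419 had 28.5 CPM of CD163 (others 160.2 to 193), dog 1010 had the lowest summed endothelial genes, 193 CPM (others 871 to 1159), and dog 0509 had 1.02 CPM of MFAP5, which was listed at 0 in the other 3.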

How the results depend on the processing

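Counts of called genes are given in the order FP by both, PP by both and midpoint, where the reported values are 602, 2025 and 749. A fold above 3 as a further threshold left 213, 452 and 219. DESeq2 called 1007 genes against FP by both (322 higher, 685 lower), 2645 against PP by both (1080 and 1565) and 1133 against the midpoint. By edgeR the counts were 681 (297 and 384), 2196 (1114 and 1082) and 774. Sample quality weights gave 2360, 4845 and 3292. Leaving out the 50 libraries whose column names hold a double separator, a naming difference whose meaning is not given in the sources used here, gave 162, 1107 and 279, and COTC022 alone 31, 564 and 131. With the GS-1 score as a covariate, 180 genes differed from PP by both. Leaving out 1 discordant dog gave 262 to 772, 1324 to 2279 and 328 to 880. Against FP by both the count was 290 without dog 0307, 381 without 0905, 401 without 1704, 262 without 1904 and 307 without 2303. Against PP by both it was 1324 without 0307. For the midpoint it was 328 without 0307, 435 without 0905, 488 without 1704, 340 without 1904 and 407 without 2303. In alternatives chosen after seeing the data, omitting dogs 0307 and 1904 gave 48, 729 and 109, and omitting the 4 dogs with high ACTA1 gave 215, 1170 and 339. Fewer dogs enter the fits that leave dogs out, and otherwise the cause was not tested.

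The sign turned for GZMK (-0.071, adjusted p = 0.966) and MSR1 (-0.066, adjusted p = 0.939) against PP by both with the GS-1 score as a covariate, and for IBSP against PP by both without dogs 0307 and 1904 (0.056, adjusted p = 0.982). The depth limits T, B and NK cell genes, most of which fell below the filter. No paired analysis was possible because each dog gave 1 tumor and the groups share no replicate numbers.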
